A study of Mus musculus with 33 samples.

Results

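The 7 genes described here are the transcription factor genes Batf, Batf2, Batf3, Id2, Nfil3, Zeb2 and Zbtb46, chosen by name as the Batf family and the factors of dendritic cell fate, out of 54146 genes in the count tables. They were followed by RNA-seq in microglia (macrophages that live in the brain tissue) sorted by FACS from C57BL/6 female mice, in 33 libraries and 10 groups. A first experiment at 3 months of age held 4 WT and 4 IRF8KO libraries. The 9-month libraries came from WT, IRF8KO, 5xFAD (a familial Alzheimer's disease transgenic line) and 5xFAD/IRF8KO mice, 3 of each. A further set at 3 months held 3 WT libraries, labelled as the controls for Batf3KO, and 3 Batf3-/- libraries. The conditional set, also at 3 months, held 3 IRF8flox libraries (flox below) and 4 IRF8floxCx3cr1CreERT2 libraries (Cre below). All mice of the conditional set had received tamoxifen on 5 consecutive days from postnatal day 12, so that the drug is shared by both of its groups. CreERT2 there is driven by Cx3cr1, which is expressed in microglia and in other mononuclear phagocytes, and the design text names a Rosa26LSL-EYFP reporter and a sort of YFP-positive cells. How the flox cells were gated is not given in the sources used here, so that loss of Irf8, the Cre allele and the gate cannot be told apart in that comparison. IRF8KO and Batf3KO are germline deletions present in every cell of the mouse.

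As background, BATF, BATF2 and BATF3 are small AP-1 type basic leucine zipper proteins that pair with JUN proteins and, with IRF4 or IRF8, bind composite DNA elements that join an AP-1 and an IRF site. BATF3 with IRF8 is needed for type 1 conventional dendritic cells (cDC1), and in that lineage BATF3 maintains Irf8 expression. NFIL3, ID2 and ZEB2 form a circuit upstream of it: NFIL3 lowers ZEB2, ZEB2 represses Id2, and ID2 holds back the E proteins that otherwise favour plasmacytoid dendritic cells. ZBTB46 marks conventional dendritic cells and their committed precursors among mononuclear phagocytes.

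The libraries differed in more than genotype. Counts assigned to genes ran from 605376 to 18357762 per library, lowest in WT at 9 months (605376 to 5757466). Irf8, the targeted gene, was at 90.3 to 153 counts per 1000000 gene counts (CPM) in IRF8KO at 3 months, below its WT controls at 213 to 305 CPM. At 9 months IRF8KO ranged from 16.7 to 141 CPM and WT from 586 to 681 CPM. Reads of Irf8 thus remained in every IRF8KO library, at levels below all controls of the same experiment. In the conditional set, flox held 972 to 1244 CPM of Irf8 and 3 Cre libraries held 367 to 521 CPM, but the library labelled Cre replicate 1 held 1134 CPM, within the flox range. That library goes against its label, and the Cre results of the members are given with and without it. All libraries are labelled female, yet Xist, the RNA of the inactive X chromosome, was at 0 CPM in each of the 4 IRF8KO libraries at 3 months and at no more than 1.22 CPM in WT at 9 months, against 190 to 224 CPM in Cre. Xist moved with genotype at 9 months (6.59 to 169 CPM in IRF8KO) and at 3 months, where the WT controls of IRF8KO held 0.720 to 6.31 CPM. WT and IRF8KO libraries did not overlap in Xist at either age. A fit with Xist as a covariate, the only test of its part in the results, can thus barely part Xist from genotype there.

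Genes of other cell types also moved with the IRF8KO genotype. The summed level of 13 neutrophil genes was 0.486 to 2.43 CPM in WT at 9 months and 59376 to 113448 CPM in IRF8KO at that age, and it was 7940 to 58442 CPM in the 3-month WT controls against 70031 to 179105 CPM in IRF8KO. In 5xFAD it was 0.364 to 2.07 CPM and in 5xFAD/IRF8KO 89135 to 171397 CPM. The 3-month WT controls of IRF8KO therefore already held much neutrophil RNA, and the 9-month controls almost none. The same held for 7 red blood cell genes, at 32011 to 120461 CPM in the 3-month WT controls and at most 38.9 CPM in WT at 9 months. They summed to 25758 to 198163 CPM in IRF8KO at 9 months. All 8 border macrophage genes together were at 7.29 to 14.1 CPM in WT and 857 to 1098 CPM in IRF8KO at 9 months, and at 51.1 to 178 and 955 to 1494 CPM at 3 months. The 12 homeostatic microglia genes summed to 50270 to 61553 CPM in WT at 9 months and 4763 to 9856 CPM in IRF8KO. At 3 months they summed to 13476 to 26842 CPM in the WT controls and 6896 to 10323 CPM in IRF8KO. In the Batf3 experiment neutrophil genes stayed at 1.92 to 5.22 CPM in both genotypes and the microglia genes at 70014 to 73086 CPM. In these bulk samples fewer cells of a type and less RNA per cell cannot be told apart.

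**Figure D1:**
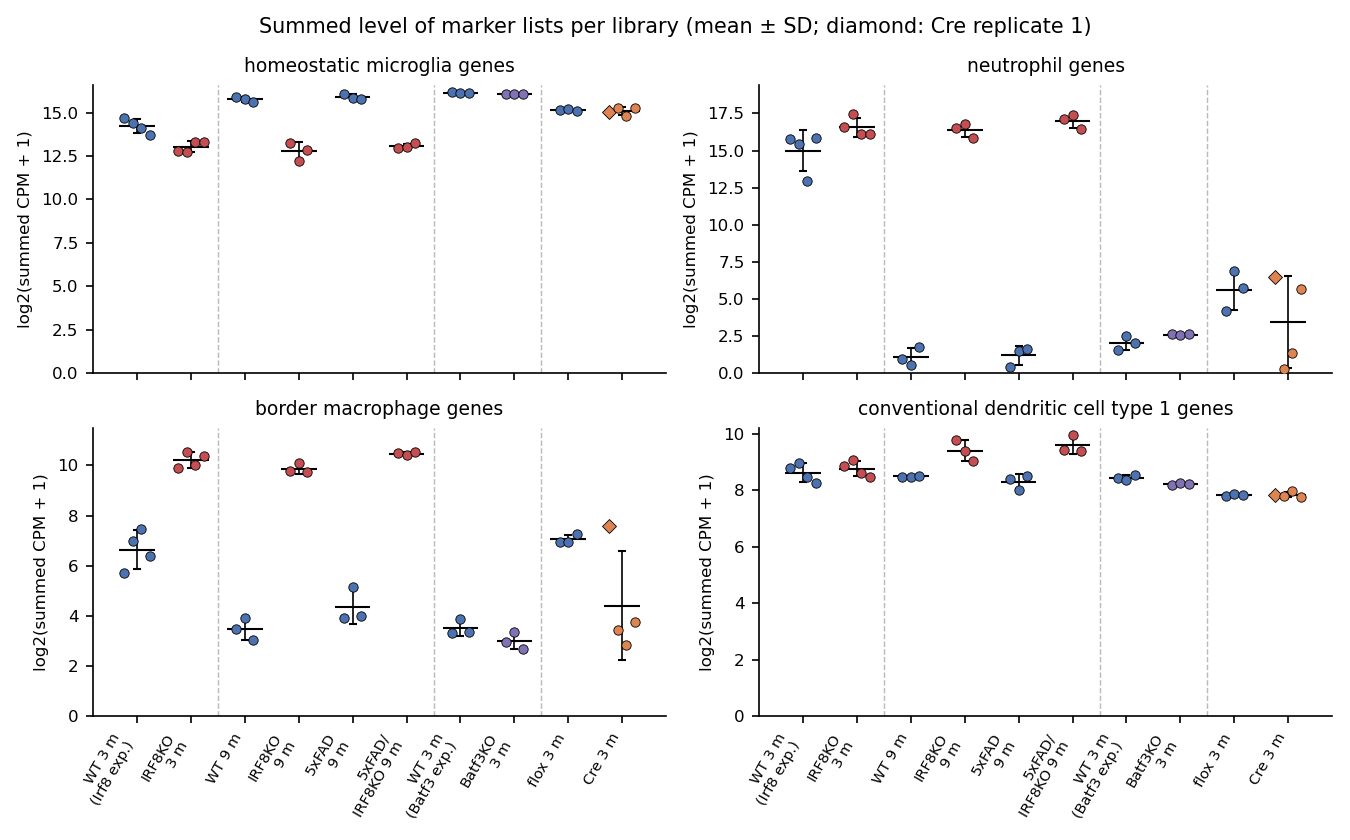
Summed CPM of 4 fixed gene lists (homeostatic microglia, neutrophil, border macrophage, cDC1) in each of the 33 libraries, on log axes. Points are libraries, with the diamond for the library labelled Cre replicate 1. WT, 5xFAD and flox libraries share a colour, as do IRF8KO and 5xFAD/IRF8KO libraries. The neutrophil sum is at 0.364 to 2.43 CPM in WT and 5xFAD at 9 months and at 7940 to 179105 CPM in the libraries of the first 3-month experiment.

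Batf3 is on chromosome 1 of GRCm38, at 191097847 to 191108945 on the plus strand (ENSMUSG00000026630.9). Its RefSeq start, 567 bases inside the GENCODE gene because other transcripts begin further upstream, is preceded by the stretch below, shown because Batf3 is the member that moved in every genotype comparison that removed it or Irf8 from the germline. It is RefSeq sequence of GRCm38.p6, chr1:191098164-191098324, plus strand, the 161 bases of the window before the start that are free of annotated exon.

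Batf3: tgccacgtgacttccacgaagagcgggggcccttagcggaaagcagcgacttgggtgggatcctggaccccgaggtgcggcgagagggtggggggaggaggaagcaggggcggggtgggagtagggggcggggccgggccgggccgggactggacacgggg

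6 motifs were searched on both strands of the promoter windows. A pair of IRF core sites was written as GAAA, any 2 bases and GAAA, and was in 3.44% of 32851 windows of 300 bases. A PU.1 and IRF pair was written as GGAA, any 2 bases and GAAA (2.72% of windows), and an AP-1 site as TGANTCA (7.81%). The AP-1 and IRF composite elements were TTTC, any 4 bases and TGANTCA (0.119%), and GAAA directly followed by TGANTCA (0.125%). Both contain the AP-1 motif. CACCTG is an E-box of the kind that ZEB proteins bind (20.2%). None of the 6 occurs in the Batf3 stretch above, which says only that these letters are not in this window.

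Batf3 fell to or near 0 in both germline knockouts of Irf8. In the 3-month WT controls of IRF8KO it was at 64.2, 26.8, 16.8 and 21.7 CPM, and in IRF8KO at 1.72, 0, 1.02 and 0.308 CPM. The groups did not overlap, and replicate 1 of WT was the highest library. The mean level was 42.4-fold lower in IRF8KO (0.764 ± 0.770 against 32.4 ± 21.6 CPM, SD, n = 4 each), with a log2 fold change of −5.33 (SE 0.89, adjusted p = 0.00543, edgeR's quasi-likelihood test with Benjamini-Hochberg adjustment over 13121 genes). With Xist as a covariate the value was −5.69 and its adjusted p 0.242, in a fit that can barely part Xist from genotype. Batf3 was the only one of the 7 members called in this comparison, where 7.39% of all genes tested were called.

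At 9 months Batf3 was at 21.5, 18.0 and 17.0 CPM in WT and had 0 counts in all 3 IRF8KO libraries. In 5xFAD it was at 28.2, 24.5 and 27.4 CPM, and again 0 counts were found in all 3 5xFAD/IRF8KO libraries. Both pairs of groups were fully separate. Against a floor of 3 counts over the whole knockout group, Batf3 was at least 138-fold lower in IRF8KO than in WT (adjusted p = 0.00051) and at least 296.1-fold lower in 5xFAD/IRF8KO than in 5xFAD (adjusted p = 0.000347), by edgeR's quasi-likelihood test. The 6 knockout libraries held 7165054 to 13077749 gene counts each. Both contrasts against 9-month WT, of IRF8KO and of 5xFAD, share its 3 libraries, and 5xFAD serves in a pair of contrasts too. A set of 3 members was called in each comparison of an Irf8 knockout at that age, Batf3, Batf2 and Id2, beside 28.3% of all 14604 genes for IRF8KO and 27.8% for 5xFAD/IRF8KO.

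5xFAD itself left Batf3 at 26.7 ± 1.96 CPM against 18.8 ± 2.36 CPM in WT (SD, n = 3 each). The 5xFAD libraries were all above the WT libraries, but the log2 difference of 0.50 had an SE of 0.74 and an adjusted p of 0.994. None of the 7 members was called in 5xFAD against WT, where 1.99% of genes were called (290 by edgeR at an adjusted p of 0.05, 1637 at an unadjusted 0.05 and 900 by DESeq2).

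In Batf3KO the deleted gene itself was nearly without reads. WT libraries held 23.5, 26.9 and 23.5 CPM and Batf3KO libraries 0.524, 0.440 and 0.500 CPM, from 8, 7 and 9 counts. The mean was 50.5-fold lower (log2 fold change −5.64, SE 0.23, adjusted p = 1.58e-08). Irf8 in the same libraries was at 1030.2 ± 76.5 CPM in WT and 976 ± 47.3 CPM in Batf3KO, a log2 difference of −0.08 (SE 0.07, adjusted p = 0.636). Irf8 RNA thus showed no difference beyond the replicate spread in Batf3KO. Batf3 RNA was at or near 0 in the germline Irf8 knockouts, whose libraries also differed from their controls in microglia and neutrophil genes as given above. The part of those lists in the Batf3 difference was not tested. 2 of the 7 members, Batf3 and Nfil3, were called in Batf3KO, beside 3.83% of 13128 genes.

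The conditional deletion gave another picture for Batf3. Flox libraries held 4.32, 4.57 and 1.93 CPM, the lowest of all control groups. The Cre libraries held 1.32, 34.7, 67.6 and 47.5 CPM, of which only the library labelled Cre replicate 1 lay below the flox range. Over all 4 Cre libraries the log2 difference from flox was 3.38 (SE 0.83), with an adjusted p of 0.198. Without Cre replicate 1 the Cre mean was 49.9 ± 16.6 CPM (n = 3) against 3.61 ± 1.46 CPM (n = 3), 13.9-fold higher, with a log2 fold change of 3.78 (SE 0.31, adjusted p = 3.72e-08 by edgeR's quasi-likelihood test). The call thus depends on that 1 library, and also on the filter, since with no filter all 7 libraries gave 3.39 with an adjusted p of 1.23e-31. No gene was called over all 7 libraries (0% of 15512 genes by edgeR, 1407 at an unadjusted p of 0.05, 164 by DESeq2), and 6.24% of 15264 genes were called without it. The border macrophage genes summed to 121 to 154 CPM in flox, to 194 CPM in Cre replicate 1 and to 6.18 to 12.5 CPM in the other Cre libraries, and B and plasma cell genes to 253 to 344, 271 and 583 to 740 CPM in the same order. Ighm, Tnfrsf17 and Il7r were called higher without that library. The part of these lists in the Batf3 difference was not tested.

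The difference between the deletions was itself tested for Batf3. The Cre effect exceeded the 3-month IRF8KO effect by 8.75 on the log2 scale (SE 1.37, 95% interval 5.87 to 11.63, adjusted p = 0.00147), and by 9.16 (adjusted p = 4.39e-05) without Cre replicate 1. With the replicate number as a block it was 7.94 and missed the threshold (adjusted p = 0.0529). It exceeded the Batf3KO effect by 9.08 (SE 1.12, adjusted p = 0.000587), or by 9.48 (adjusted p = 4.45e-12) without Cre replicate 1. Between IRF8KO and Batf3KO the fall of Batf3 differed by 0.44 (SE 0.94, adjusted p = 0.883), with a 95% interval from −1.56 to 2.44 that leaves room for a several-fold difference in either direction. Set against Irf8, low Batf3 was found in groups with little Irf8 (IRF8KO) and in flox, with a mean Irf8 of 1104 ± 136 CPM. Those levels were scaled within each experiment. With all libraries on 1 common scale flox ranked 3 in mean Irf8 (1022 CPM), below the WT controls of Batf3KO (1230 CPM) and Batf3KO (1089 CPM).

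**Figure D2:**
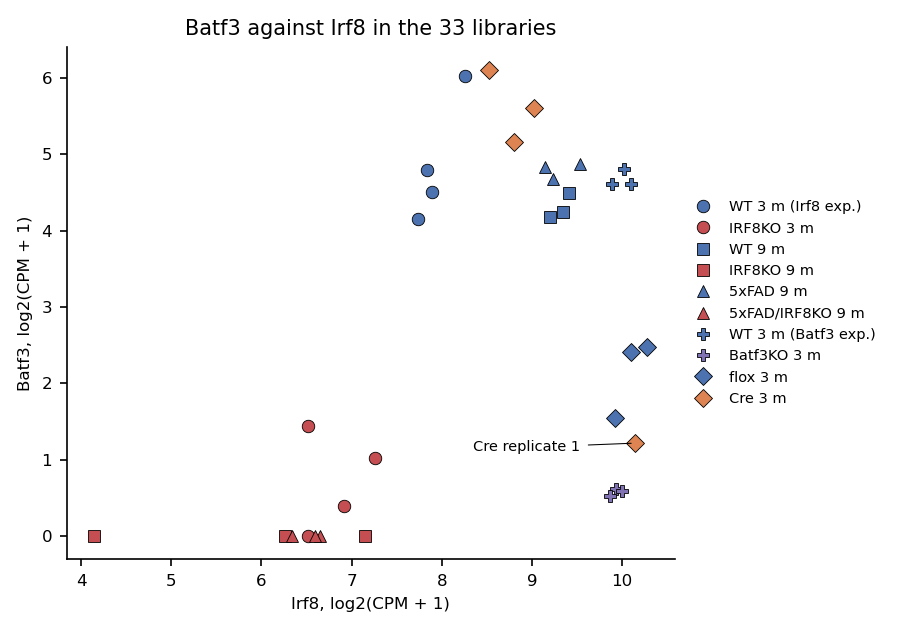
Batf3 against Irf8 in the 33 libraries, both as log2(CPM + 1), with 1 point per library. Diamonds are the flox and Cre libraries, and the library labelled Cre replicate 1 is marked by its name. WT, 5xFAD and flox libraries share a colour, as do IRF8KO and 5xFAD/IRF8KO libraries. IRF8KO and 5xFAD/IRF8KO libraries lie at the lower left, with Batf3 at 0 to 1.72 CPM, flox and Cre replicate 1 lie at high Irf8 with Batf3 at 1.32 to 4.57 CPM, and Cre replicates 2 to 4 lie at intermediate Irf8 with Batf3 at 34.7 to 67.6 CPM.

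Batf2, on chromosome 19 (6140983 to 6172476, plus strand, ENSMUSG00000039699.13), encodes a family member that can stand in for BATF3 in some settings of infection. Its group means were at most 3.64 CPM, and its locus overlaps Arl2 on the opposite strand, whose reads the unstranded counting cannot tell apart. At 9 months WT held 2.46, 4.37 and 2.43 CPM, from 16, 9 and 2 counts, and 5xFAD held 5.28, 3.58 and 2.07 CPM, from 58, 19 and 4 counts. All 6 libraries of IRF8KO and 5xFAD/IRF8KO at that age had 0 counts. Batf2 was at least 22.6-fold lower in IRF8KO than in WT (adjusted p = 0.00755) and at least 40.4-fold lower in 5xFAD/IRF8KO than in 5xFAD (adjusted p = 0.00524). With Xist as a covariate the IRF8KO value was not called (adjusted p = 0.0919), in a fit that can barely part Xist from genotype.

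The same loss was not seen at 3 months. WT libraries of the first experiment were at 0, 2.64, 3.38 and 0 CPM and IRF8KO libraries at 2.04, 3.42, 5.87 and 0.154 CPM. The groups overlapped fully, with a log2 difference of 0.86 (SE 1.39, adjusted p = 0.764). The effect at 9 months was lower than at 3 months by a fitted −8.21 on the log2 scale (SE 2.64, adjusted p = 0.0344), a size that depends on the prior count because the 9-month knockouts had no reads. That call was lost in 8 of the fits that left out 1 library or used the replicate number, with adjusted p up to 0.0775. The 3-month WT controls also differed from the 9-month ones in neutrophil, red blood cell and microglia genes as given above.

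Batf2 was at 3.35, 2.169 and 2.88 CPM in the WT libraries of the Batf3 experiment and 3.67, 3.33 and 1.78 CPM in Batf3KO, overlapping groups with a log2 difference of 0.06 (SE 0.36, adjusted p = 0.959). In flox it was at 2.04, 2.06 and 1.93 CPM and in Cre at 0.480, 1.49, 1.75 and 1.22 CPM. Every Cre library was below every flox library, and the log2 difference of −0.69 had an SE of 0.51 and an adjusted p of 0.807 (−0.44 and 0.801 without Cre replicate 1).

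Batf, on chromosome 12 (85686669 to 85709087, plus strand, ENSMUSG00000034266.6), is best known from T and B cells and can also replace BATF3 in dendritic cells under some conditions. No comparison called it in the fits as designed. The 3-month WT controls of IRF8KO held 14.7, 46.9, 11.3 and 0 CPM and IRF8KO held 14.6, 25.2, 20.0 and 19.9 CPM. WT replicate 4 had no Batf count, which allows up to 0.401 CPM, and replicate 2 was the highest library of the series. At 9 months IRF8KO held 45.1, 6.43 and 0 CPM, on both sides of the WT values of 11.1, 9.71 and 13.4 CPM.

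5xFAD libraries held 23.4, 26.9 and 29.0 CPM of Batf, all above WT, and 5xFAD/IRF8KO libraries 15.3, 45.4 and 6.58 CPM, which lay on both sides of 5xFAD. The log2 difference between 5xFAD and WT was 1.22 with an SE of 1.34 and an adjusted p of 0.931, in a fit whose spread is shared with the scattered knockout libraries. A fit of only those 6 libraries gave 1.19 with an adjusted p of 0.0019, so that the call depends on which libraries set the spread.

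Batf levels were steadier in the other experiments. Batf3KO libraries (14.0, 11.4 and 12.9 CPM) lay above their WT controls (10.2, 9.44 and 7.95 CPM) without overlap. The log2 difference was 0.47 (SE 0.18, adjusted p = 0.191), so a rise of Batf in the absence of Batf3 did not pass the test. In the conditional set flox held 27.1, 30.0 and 26.5 CPM and Cre 30.7, 30.4, 23.4 and 28.3 CPM, with a log2 difference of 0.02 (SE 0.17, adjusted p = 0.992), or −0.03 (adjusted p = 0.978) without Cre replicate 1.

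**Figure D3:**
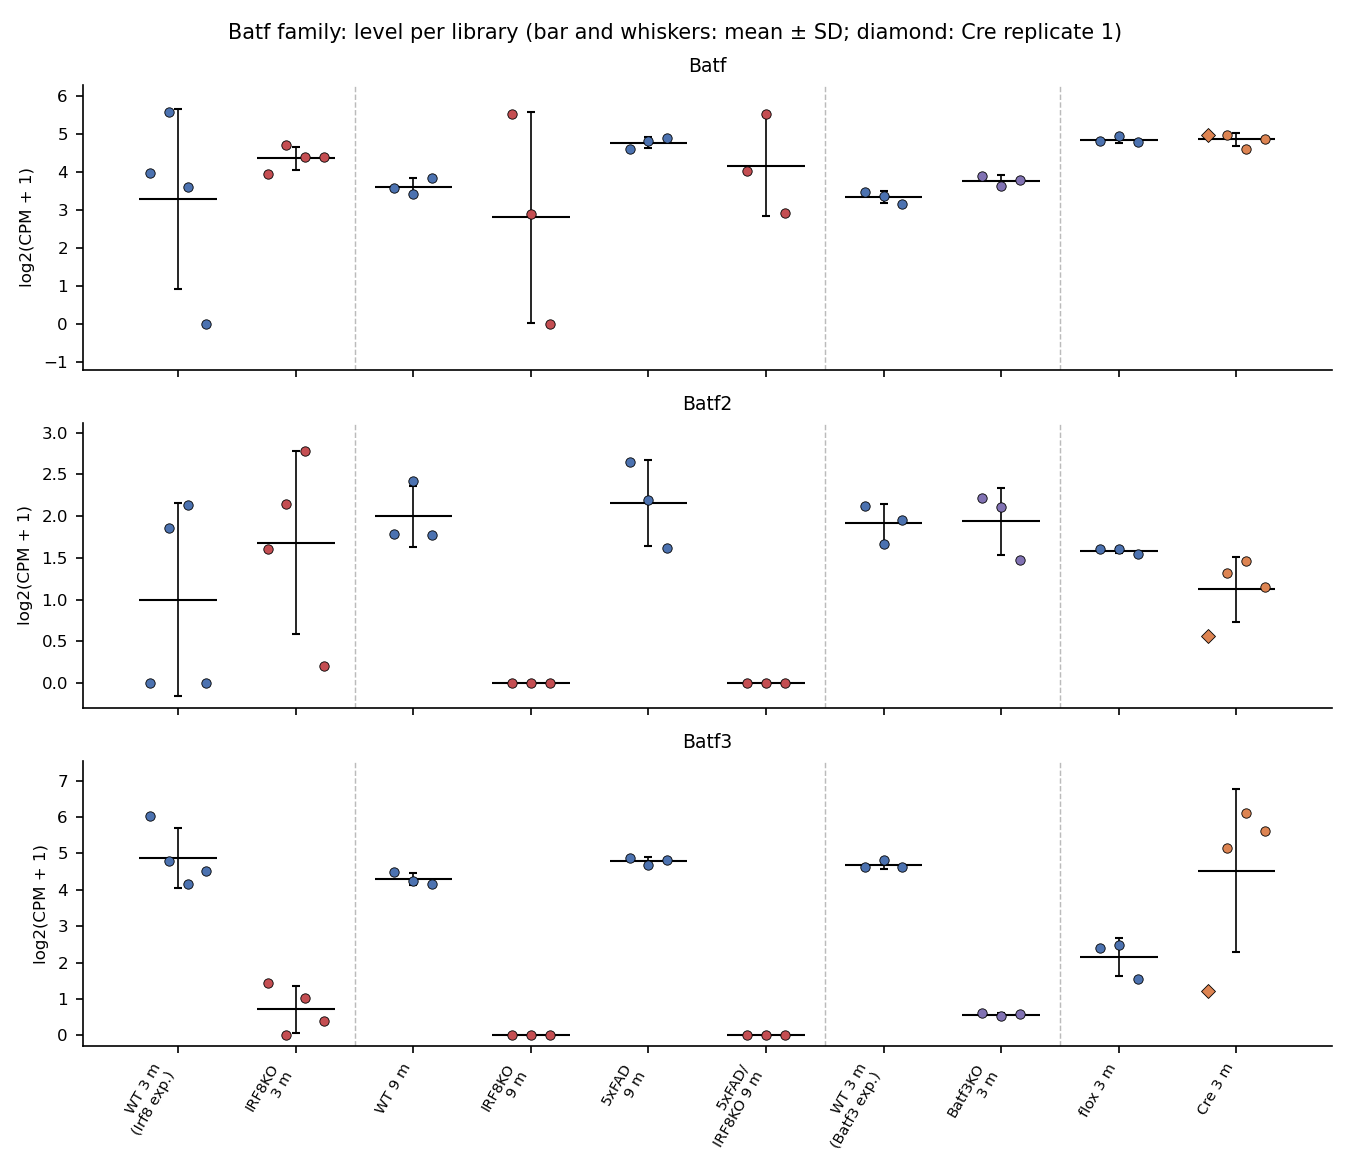
Levels of Batf, Batf2 and Batf3, 1 panel each, as log2(CPM + 1) in every library of the 10 groups, with bars and whiskers for the mean ± SD on that scale and dashed lines between experiments. Batf3 is at 0 in all 6 libraries of IRF8KO and 5xFAD/IRF8KO at 9 months, and at 34.7 to 67.6 CPM in Cre replicates 2 to 4 against 1.93 to 4.57 CPM in flox.

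Id2, on chromosome 12 (25093799 to 25097140, minus strand, ENSMUSG00000020644.9), encodes an inhibitor of E proteins that dendritic cells, innate lymphoid cells and many other cells use. Its group means ran from 8.57 to 110.1 CPM per kilobase of exon. At 9 months the WT libraries were at 62.3, 60.7 and 37.7 CPM and those of IRF8KO at 214, 355 and 236 CPM. The groups were separate, and Id2 was 5.01-fold higher in IRF8KO (269 ± 76.0 against 53.6 ± 13.8 CPM, n = 3 each, log2 fold change 2.31, SE 0.33, adjusted p = 0.000317). In 5xFAD it was at 65.5, 61.6 and 92.1 CPM and in 5xFAD/IRF8KO at 198, 154 and 275 CPM, again separate and 2.86-fold higher in the absence of Irf8 (log2 fold change 1.52, SE 0.32, adjusted p = 0.00446).

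At 3 months the difference was within the spread. The WT controls of IRF8KO held 155, 234, 208 and 112 CPM and IRF8KO 220.5, 319.5, 194 and 244 CPM, a log2 difference of 0.46 (SE 0.32, adjusted p = 0.424). These groups overlapped, and the WT mean was already 177 ± 54.2 CPM. The Id2 effect of IRF8KO at 9 months exceeded that at 3 months by 1.91 (SE 0.46, 95% interval 0.94 to 2.87, adjusted p = 0.0061, edgeR), a call that held in all 19 alternative fits. Neutrophil genes had the same order, near 0 in the 9-month controls and at 7940 to 58442 CPM in the 3-month controls. Red blood cell genes did too, at no more than 38.9 CPM in WT at 9 months against 32011 to 120461 CPM at 3 months. So did oligodendrocyte (201 to 214 against 6407 to 58463 CPM), astrocyte and neuron genes, while the microglia genes were lower at 3 months. The part of these lists in the Id2 difference was not tested. In the Batf3 experiment the WT libraries held 20.2, 22.2 and 20.2 CPM of Id2 and the knockouts 26.5, 21.8 and 27.4 CPM, a log2 difference of 0.27 (SE 0.14, adjusted p = 0.339).

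Flox libraries held 142, 129.7 and 138 CPM of Id2 and Cre libraries 122, 139, 87.1 and 91.2 CPM, overlapping groups with a log2 difference of −0.31 (SE 0.19, adjusted p = 0.717), or −0.37 (adjusted p = 0.37) without Cre replicate 1. Flox was thus well above the WT controls of the Batf3 experiment at the same age, with neutrophil genes at 17.4 to 119 CPM and border macrophage genes at 121 to 154 CPM in flox. In the Cre libraries, in the order given above, neutrophil genes summed to 89.9, 0.213, 1.52 and 48.8 CPM. Whether the neutrophil and border macrophage lists had a part in these Id2 levels was not tested. The 2 control sets were not tested against each other, since they were run as separate experiments.

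Nfil3, on chromosome 13 (52967209 to 52981073, minus strand, ENSMUSG00000056749.7), encodes a basic leucine zipper repressor that acts early in cDC1 specification and in the circadian clock. It rose in Batf3KO. The WT libraries held 12.9, 15.1 and 15.8 CPM and the Batf3KO libraries 22.7, 28.8 and 30.7 CPM. The groups did not overlap, and the mean was 1.88-fold higher in Batf3KO (27.4 ± 4.16 against 14.6 ± 1.52 CPM, n = 3 each), with a log2 fold change of 0.91 (SE 0.16, 95% interval 0.56 to 1.26, adjusted p = 0.00662). The call held in 10 of 11 alternatives. The exception was a fit over all 33 libraries, with 0.86 and an adjusted p of 1. Beside the neutrophil and microglia sums given above, border macrophage genes summed to 8.93 to 13.7 CPM in these WT libraries and 5.44 to 9.18 CPM in Batf3KO. Oligodendrocyte genes were lower in Batf3KO (363 to 439 CPM) than in WT (503 to 527 CPM), as were neuron genes (5.72 to 7.05 against 11.4 to 14.9 CPM), with Mobp, Mbp, Rbfox3, Mrc1 and Aldoc called lower. The part of these lists in the Nfil3 difference was not tested.

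In the Irf8 knockouts Nfil3 was higher in mean but not called. At 3 months WT held 14.2, 36.2, 12.3 and 6.28 CPM and IRF8KO 37.9, 41.4, 32.3 and 30.8 CPM. Only WT replicate 2 reached the IRF8KO range, and the log2 difference was 1.04 (SE 0.51, adjusted p = 0.242). Without that library it was 1.72 with an adjusted p of 0.0482. At 9 months the WT levels were 11.4, 15.5 and 6.08 CPM, and those of IRF8KO were 17.0, 54.5 and 19.2 CPM, which did not overlap, with a log2 difference of 1.44 (SE 0.94, adjusted p = 0.282).

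In 5xFAD Nfil3 was at 24.0, 10.9 and 12.9 CPM, and in 5xFAD/IRF8KO at 61.0, 76.7 and 2.5 CPM. The third 5xFAD/IRF8KO library was the lowest of both groups and of the series. Over all libraries the log2 difference was 1.54 (SE 0.93, adjusted p = 0.246), and without that library it was 2.09 with an adjusted p of 0.0346. In the conditional set flox held 20.0, 12.8 and 15.1 CPM and Cre 10.6, 8.29, 13.2 and 13.5 CPM, a log2 difference of −0.49 (SE 0.25, adjusted p = 0.622), or −0.46 (adjusted p = 0.46) without Cre replicate 1.

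Nfil3 was also compared between the deletions. The Cre effect was below the Batf3KO effect by −1.33 on the log2 scale (SE 0.31, 95% interval −1.98 to −0.68, adjusted p = 0.0351), a call that held in 9 of 18 alternatives and at −1.30 (adjusted p = 0.0109) without Cre replicate 1. IRF8KO and Batf3KO did not differ detectably in their Nfil3 effects (0.25, SE 0.62, 95% interval −1.07 to 1.56, adjusted p = 0.909).

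Zeb2, on chromosome 2 (44983632 to 45117395, minus strand, ENSMUSG00000026872.17), encodes a zinc finger repressor of E-box genes that takes part in macrophage identity as well as in plasmacytoid dendritic cell development. Zeb2os lies on the opposite strand within its locus, and the unstranded counts cannot part the pair. No comparison called Zeb2 in the fits as designed. WT libraries at 9 months held 215, 162 and 174 CPM, the highest group, and 5xFAD held 90.9, 51.1 and 42.4 CPM, the lowest. These groups did not overlap and differed by a log2 value of −1.57 (SE 0.39, 95% interval −2.42 to −0.73), with an adjusted p of 0.062 over 14604 genes. DESeq2 gave −1.68 with an adjusted p of 0.00064, and size factors of the DESeq2 type within edgeR gave −1.69 with 0.0459. The fits of only these groups and of all 33 libraries called it as well, 4 of 13 alternatives in all, so that the call turns on the choice of fit.

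IRF8KO libraries at 9 months held 84.4, 114 and 91.1 CPM of Zeb2, all below WT, with a log2 difference of −0.93 (SE 0.38, adjusted p = 0.089). It was called in fits of only these groups (−0.83, adjusted p = 0.0389) and of all 33 libraries (−0.77, adjusted p = 0.0429). Within 5xFAD, loss of Irf8 went with 51.5, 132 and 121 CPM, which overlapped 5xFAD and gave a log2 difference of 0.72 (SE 0.38, adjusted p = 0.186; 0.0317 with all 33 libraries). At 3 months WT held 69.8, 82.4, 64.2 and 86.1 CPM and IRF8KO 67.9, 43.6, 59.3 and 76.9 CPM. Those overlapped, with −0.29 (SE 0.30, adjusted p = 0.616). Batf3KO (135, 162 and 119 CPM) and its WT controls (94.8, 129 and 133 CPM) overlapped too, at 0.22 (SE 0.14, adjusted p = 0.431), as did Cre (92.8, 74.6, 99.1 and 69.4 CPM) and flox (97.5, 97.2 and 76.2 CPM), at −0.10 (SE 0.18, adjusted p = 0.95), or −0.16 (adjusted p = 0.793) without Cre replicate 1. In no comparison were Nfil3, Zeb2 and Id2 all called. Of these 3 genes, only Nfil3 was called in Batf3KO and only Id2 in the 9-month Irf8 knockouts.

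Zbtb46, on chromosome 2 (181387762 to 181459426, minus strand, ENSMUSG00000027583.13), had long exons and few reads, at most 1.60 CPM per kilobase in any group mean. The RefSeq start in the promoter table lies 35038 bases inside the GENCODE gene, at the first base of an internal exon, so the 250 bases before it are intronic in the longer transcripts. They are shown because they were the only window of a member with both an AP-1 and an IRF composite match. The stretch is RefSeq sequence of GRCm38.p6, chr2:181424389-181424638, minus strand, with the matches in capitals.

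Zbtb46: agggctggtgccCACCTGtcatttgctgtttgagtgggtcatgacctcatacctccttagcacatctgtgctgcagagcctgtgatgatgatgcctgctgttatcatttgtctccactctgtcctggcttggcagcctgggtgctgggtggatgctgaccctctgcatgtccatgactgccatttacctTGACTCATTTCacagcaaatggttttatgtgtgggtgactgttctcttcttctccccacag

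The first run of capitals is CACCTG and the second holds TGANTCA which, read on the reverse strand, directly follows GAAA. Among the other members with windows in the table, 1 of 4 windows of Zeb2 held TGANTCA, and those of Batf, Id2 and Nfil3 held none of the 6 motifs. A match of letters is a description of the sequence only.

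The 3-month WT controls of IRF8KO held 0, 0.942, 0.831 and 4.81 CPM of Zbtb46 and IRF8KO 24.9, 7.93, 5.12 and 15.9 CPM. The groups did not overlap, narrowly, and the mean was 8.17-fold higher (13.5 ± 8.89 against 1.65 ± 2.15 CPM, n = 4 each). The log2 difference of 2.96 (SE 1.01, 95% interval 0.76 to 5.16) had an adjusted p of 0.0947. Without WT replicate 4 it was 4.24 with an adjusted p of 0.0299, and DESeq2 gave 2.91 with 0.0147. Those were among the 4 of 14 alternatives that called it, with adjusted p up to 0.636 in the others. At 9 months the order was the opposite, with WT at 4.76, 6.80 and 7.29 CPM and IRF8KO at 0.393, 3.98 and 2.44 CPM (log2 difference −1.45, SE 1.38, adjusted p = 0.475). The difference between the ages, −4.34 (SE 1.61), had an adjusted p of 0.059.

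In 5xFAD the 3 libraries held 4.10, 2.26 and 4.14 CPM, all below WT, with an adjusted p of 1. 5xFAD/IRF8KO held 0.171, 32.2 and 3.89 CPM, a group mean that rests on replicate 2. In the Batf3 experiment WT held 12.3, 17.5 and 7.35 CPM and Batf3KO 11.4, 14.1 and 9.83 CPM, with a log2 difference of −0.08 and a 95% interval from −0.65 to 0.50 (adjusted p = 0.92). Zbtb46 thus showed no change detectable at this depth when Batf3 was lost.

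Zbtb46 was lower in most Cre libraries. Flox held 14.1, 14.5 and 12.3 CPM and Cre 13, 4.36, 5.71 and 6.83 CPM, where only the library labelled Cre replicate 1 was within the flox range. Over all Cre libraries the log2 difference was −0.87 (SE 0.33, adjusted p = 0.421). Without Cre replicate 1 Zbtb46 was 2.42-fold lower (5.64 ± 1.24 against 13.7 ± 1.2 CPM, n = 3 each, log2 fold change −1.28, SE 0.28, adjusted p = 0.00539), and with Batf3 it made 2 of 7 members called. Irf8 itself differed by −0.84 over all Cre libraries (SE 0.32, adjusted p = 0.421, edgeR's quasi-likelihood test). Without Cre replicate 1 the value was −1.32 (SE 0.19, adjusted p = 5.81e-05). That library was set apart for its Irf8 level, so the second value cannot test the loss of Irf8. Border macrophage genes, 4 of 5 tested called lower without Cre replicate 1, summed to 6.18 to 12.5 CPM in the other Cre libraries as given above. Their part in the Zbtb46 difference was not tested.

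The Zbtb46 effect of the conditional deletion was below that of IRF8KO at 3 months by −3.73 (SE 1.06, 95% interval −5.96 to −1.50, adjusted p = 0.0406, edgeR). The call held in 8 of 20 alternatives and in the fit without Cre replicate 1 (−4.13, adjusted p = 0.0386). Batf3 and Zbtb46 were the 2 members called in that comparison, beside 7.04% of 17361 genes, and Batf3 and Nfil3 those called between the conditional and Batf3KO effects, beside 1.88% of 16939 genes. None was called between IRF8KO and Batf3KO, where 3.22% of 16426 genes were called by edgeR, with 2869 genes at an unadjusted p of 0.05 and 1401 called by DESeq2. Id2 and Batf2 were the members called between the IRF8KO effects at 9 and 3 months, beside 24% of 15512 genes.

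**Figure D4:**
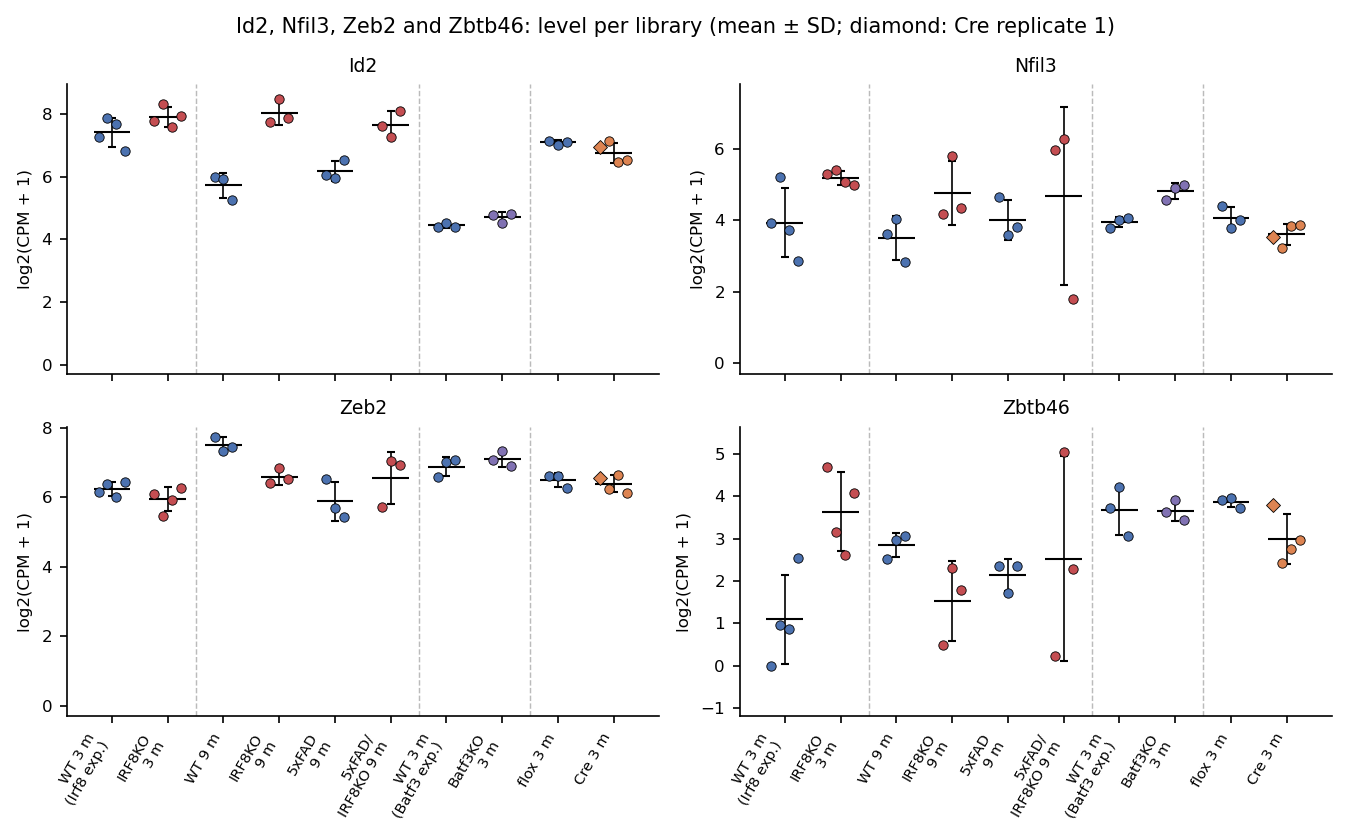
Levels of Id2, Nfil3, Zeb2 and Zbtb46, 1 panel each, as log2(CPM + 1) in every library of the 10 groups, with bars and whiskers for the mean ± SD on that scale and dashed lines between experiments. Id2 in IRF8KO at 9 months (214 to 355 CPM) lies above WT (37.7 to 62.3 CPM), and Nfil3 in Batf3KO (22.7 to 30.7 CPM) lies above its WT controls (12.9 to 15.8 CPM).

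**Figure D5:**
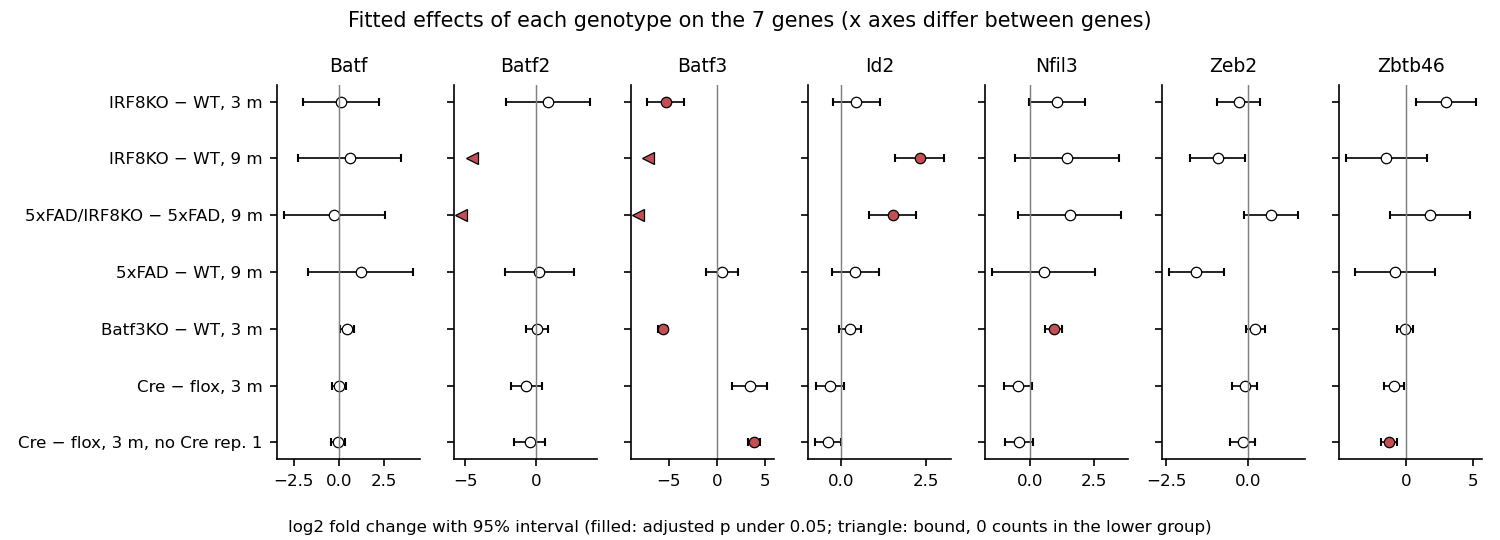
Log2 fold change of each member with its 95% interval in 7 comparisons, 1 panel per gene, with the Cre against flox comparison shown with all libraries and without Cre replicate 1. Filled points have an adjusted p under 0.05, triangles mark bounds where the lower group had 0 counts, and the x axes differ between panels. Batf3 is lower in all comparisons that remove Irf8 or Batf3 from the germline and higher in Cre (3.78 without replicate 1).

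Genes around the members were read from fixed lists. Of all genes tested, 7.39% were called in IRF8KO at 3 months, 28.3% at 9 months and 27.8% in 5xFAD/IRF8KO. The shares were 1.99% in 5xFAD, 3.83% in Batf3KO and 6.24% in Cre without replicate 1. Of 18 dendritic cell transcription factor genes, 17 were tested at 3 months in IRF8KO and 1 rose, Bcl6, a repressor (29.5 ± 5.27 against 6.92 ± 4.32 CPM, log2 fold change 2.08, SE 0.52, adjusted p = 0.0318). At 9 months 2 of 16 were higher (Runx3 and Bcl11a) and 3 lower in IRF8KO, namely Klf4, Cebpa and Ikzf1. The list's median log2 change was 0.72 at 3 months, against −0.02 over all genes tested, and −0.13 at 9 months, against 0.25. Cebpa, a myeloid differentiation factor, was at 5.96 ± 3.87 CPM in IRF8KO and 53.3 ± 17.9 CPM in WT at 9 months (log2 fold change −3.17, adjusted p = 0.0034). In Batf3KO 2 of 14 rose, Cebpb (83.3 ± 10.9 against 52.5 ± 14.0 CPM, adjusted p = 0.0457) and Cebpa (153.7 ± 11.2 against 108 ± 10.9 CPM, log2 fold change 0.51, adjusted p = 0.0115), none fell, and the median was 0.16, against 0.00239 over all genes. None of 14 was called in Cre without replicate 1, with a median of −0.10. Genes of other cell types moved with IRF8KO as given above, and their part in this list was not tested.

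The list of AP-1 partners and relatives of the Batf family held 17 genes. At 3 months 3 of 14 rose in IRF8KO and none fell: Jdp2, a Jun dimerisation protein (121 ± 23.4 against 25.6 ± 10.3 CPM, log2 fold change 2.23, adjusted p = 0.00445), Fosl2 (1.96, adjusted p = 0.0338) and Mafg (1.15, adjusted p = 0.039). At 9 months 2 of 15 were higher and 4 lower, beside 28.3% of all genes called. Jdp2 was at 79.3 ± 8.39 CPM in IRF8KO and 5.26 ± 1.61 CPM in WT (log2 fold change 3.91, adjusted p = 0.00012), and Fosl2 was higher as well (3.09). Jun (−3.87), Junb (−2.32) and Maf (−1.91) were among those that fell. In 5xFAD 2 fell, Fos (−5.31, adjusted p = 0.0083) and Jun (−3.17, adjusted p = 0.0162). The list's median was 0.31 at 3 months and −0.70 at 9 months in IRF8KO and −0.42 in 5xFAD, against −0.02, 0.25 and 0.00181 over all genes.

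In 5xFAD/IRF8KO against 5xFAD, Fosl2 (2.96), Fos (6.92) and Jdp2 (2.60) were higher and Maf was lower (−2.62). Of 15 AP-1 genes tested there, 3 were called higher and 2 lower, beside 27.8% of all genes, with a median of −0.23. None of the 14 AP-1 genes tested was called in Batf3KO (median −0.06). In Cre without replicate 1 Fosl2 (8.47 ± 1.69 against 23.5 ± 8.67 CPM, −1.47, adjusted p = 0.00178) and Fos were lower, the only AP-1 genes called lower of 14 tested. The list's median there was −0.04. Fosl2 was thus higher in the Irf8 germline knockouts and lower in those Cre libraries, and the difference between the conditional and the germline effect was called for Fosl2 and Jdp2 in the fit of all libraries. Genes of other cell types moved with the Irf8 knockouts as given above, and their part in the AP-1 list was not tested at either age.

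Of 6 Id, E protein and Zeb1 genes none was called in IRF8KO at 3 months (median −0.24). At 9 months 3 were higher, Id1, Id3 and Id4 (median 3.85 against 0.25 over all genes, 28.3% of them called). Id3 was at 39.6 ± 7.81 CPM in IRF8KO and 0.102 ± 0.177 CPM in WT, the latter from 2 counts (adjusted p = 0.000223), and Id4 was at 51.9 ± 12.4 against 0.205 ± 0.355 CPM, from 4 counts (adjusted p = 0.00121). The same 3 genes were higher in 5xFAD/IRF8KO than in 5xFAD. Astrocyte and oligodendrocyte genes, from cells that express Id genes as well, were summed to 160 to 184 and 201 to 214 CPM in WT at 9 months and to 2121 to 3090 and 6623 to 11984 CPM in IRF8KO, and their part was not tested. None of the 3 genes tested in Batf3KO was called.

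The cDC1 marker list of 14 genes was summed in each library. Its level was 309 to 506 CPM in the 3-month WT controls of IRF8KO and 358 to 544 CPM in IRF8KO, and at 9 months 354 to 368 CPM in WT and 522 to 885 CPM in IRF8KO. It was 332 to 372 CPM in the WT controls of Batf3KO against 290 to 307 CPM in Batf3KO, and 224 to 236 CPM in flox against 217 to 250 CPM in Cre. At 3 months 1 of 10 genes tested rose in IRF8KO, Ly75 (3.54, adjusted p = 0.0425). At 9 months Ly75, Cd36 and Cd24a were higher and Tlr3 and Itgae lower, among 9 tested (median −1.02), beside 28.3% of all genes. In IRF8KO at that age 6 of the 14 list genes had 0 counts, among them Xcr1 and Clec9a, which define cDC1. In WT at 9 months 2 had 0 counts, Cd8a and Gcsam, which were also at 0 in IRF8KO, and only 4 reached a mean of 5 CPM. Clec9a had 0 counts in the WT controls of Batf3KO too. In IRF8KO at 3 months, Cd8a was the only list gene with 0 counts. Cd24a alone was at 395 CPM in IRF8KO at 9 months. Tlr3, a sensor of double-stranded RNA, was at 0.521 ± 0.774 CPM in IRF8KO and 105 ± 13.7 CPM in WT. Cd24a is also abundant in neutrophils, whose genes moved with it, and their part was not tested. None of 6 tested was called in Batf3KO (median −0.30), and in Cre without replicate 1 Naaa (38.6 ± 2.03 against 12.4 ± 4.55 CPM, 1.63, adjusted p = 8.49e-05) and Tlr3 (0.78, adjusted p = 0.0363) were higher among 6 tested.

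The other dendritic cell lists were read in the same way. Of type 2 conventional dendritic cell genes, 3 of 6 tested were called in IRF8KO at 9 months, Mgl2 higher and Sirpa and Klrd1 lower. The same genes were called in the same directions in 5xFAD/IRF8KO. The shares of all genes called were 28.3% and 27.8%. Sirpa, an inhibitory receptor that microglia also express, was lower in IRF8KO at 9 months (−2.08, adjusted p = 0.000399) and in Batf3KO (−0.39, SE 0.06, adjusted p = 0.00215), where Klrd1 was higher among 3 genes tested. Among activated dendritic cell genes Fscn1, an actin bundling protein, was lower in IRF8KO at 9 months (31.0 ± 3.13 against 220.1 ± 16.1 CPM, −2.83) and in Cre without replicate 1 (73.9 ± 12.7 against 115 ± 10.6 CPM, −0.64, adjusted p = 0.029).

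Of the plasmacytoid list, 2 of 7 genes fell in IRF8KO at 3 months, Siglech and Ly6d, and the median was −1.11. At 9 months 5 of 8 were called, beside 28.3% of all genes, Atp1b1, Cox6a2, Ly6d and Pacsin1 higher and Siglech lower. The median was 3.46 against 0.25 over all genes. In 5xFAD/IRF8KO 5 of 8 were called as well, beside 27.8% of all genes. There Atp1b1, Ly6d and Pacsin1 were higher and Siglech and Bst2 lower, with a median of 1.61. Siglech, which is also a microglia gene, was thus lower in each of these comparisons, and Ly6d was lower at 3 months and higher at 9 months. Of 8 genes tested in 5xFAD against WT only Cox6a2 was called, higher (3.58, adjusted p = 0.0434, edgeR), beside 1.99% of all genes. In Cre without replicate 1 only Cox6a2 was called of 6, lower (9.60 ± 3.02 against 219 ± 48.1 CPM, −4.52, adjusted p = 1.29e-10), beside 6.24%. None was called over all Cre libraries, and none of 5 in Batf3KO. Neuron genes, near 0 in the 9-month controls (4.14 to 5.83 CPM), summed to 534 to 2705 CPM in the 9-month Irf8 knockouts, and their part in these lists was not tested.

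Across the 10 groups the members differed in how widely they ranged. The highest group mean was 77.5 times the lowest above 0 for Batf3, 12.9 times for Id2, 8.29 times for Zbtb46, 4.25 times for Nfil3, 3.07 times for Batf, 2.99 times for Zeb2 and 2.95 times for Batf2. These ratios leave out the 9-month Irf8 knockouts for Batf3 and Batf2, which had 0 counts of both. Batf2 was at least 22.6-fold and 40.4-fold lower there than in WT and 5xFAD. For Batf3 the lowest group above 0 was Batf3KO, where the gene itself is deleted. Levels were normalised within each experiment, so the order of groups from different experiments is a description. Of the 9 pairs of neighbours in that order, the libraries of both groups overlapped in all 9 for Batf and Nfil3, in 8 for Id2, Zeb2 and Zbtb46, in 7 for Batf2 and in 5 for Batf3. The 4 steps without overlap in Batf3 were from the WT controls of Batf3KO down to WT at 9 months, from there to flox, from flox to IRF8KO at 3 months, and from Batf3KO to IRF8KO at 9 months. Per kilobase of exon, group means of Batf3 ran from 0 to 23.7 CPM, of Nfil3 from 5.43 to 23.1, of Batf from 6.55 to 20.1, of Zeb2 from 3.08 to 9.20 and of Batf2 from 0 to 1.44.

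The genes whose group means most resembled a member's were found by Pearson's r over the 10 group means of log2(CPM + 1), among 13946 genes, on 1 common scale. For Batf3 these were Lat2 (r = 0.913), Ndfip1 (0.905) and Tmem100 (0.887). Id2 was most like Rheb (0.973) and Cks1b (0.970), and Nfil3 most like Slc2a6 (0.933), B3gnt8 (0.913) and Adap1 (0.892). For Zeb2 the closest were Tmf1 (0.927), Ankrd50 (0.926) and Rock2 (0.910), for Zbtb46 Mafg (0.953), B4galt5 (0.937) and Cux1 (0.935), and for Batf Nme6 (0.930), Ccl24 (0.912) and Cebpd (0.910). Batf2 was too low in every group for this measure. Among the members, Batf3 and Nfil3 had r = −0.764, Id2 and Zeb2 −0.673, and Batf3 and Irf8 0.571. All these points share libraries, experiments and cell makeup, and the values only describe them.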

How the data were processed

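Gene counts of 33 libraries of sorted mouse microglia were used, 1 table per library. The deposited tables are raw read counts per gene, and the column that ignores strand was taken because both strand columns held similar shares; 47.3% to 78.6% of the reads counted fell in genes. Per the submitters' processing notes, mm10 was the build and bcl2fastq, STAR 2.5.2b, Picard 2.17.11, Subread and featureCounts were used; the annotation is not given in the sources used here. Per the labels' protocols, microglia were isolated without enzymes from each brain, and cDNA was made with SMART-Seq v4 (15 cycles) and Nextera XT and read as paired ends of 55 bases, with no molecular identifiers, so the floors for 0 counts cover counting error only; intervals of fold changes include the spread between libraries. Symbols and positions came from GENCODE M21 (GRCm38), in which 54079 of 54146 identifiers were found.

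Counts were filtered (filterByExpr, minimum count 10, minimum total 15), scaled by TMM and tested with edgeR 4.0.16 (R 4.3.3, limma 3.58.1) by quasi-likelihood, Benjamini-Hochberg adjusted over all genes tested, with a threshold of 0.05. The 12 libraries aged 9 months shared 1 model, other comparisons used their own groups, and differences of effects used models of 4 groups. CPM levels were scaled within an experiment. Alternatives were DESeq2 1.42.0, other size factors, no filter, the replicate number as a block, Xist as a covariate, only the groups compared, all 33 libraries, and leaving out each library. Nothing says that libraries of a group came from separate litters, so p-values measure the spread between these libraries. The 7 members and the 17 lists of 169 genes were chosen with earlier results of these data known. Of the called genes of a list, no more than 4 per direction and comparison were named, by size of change, if their group means reached 5 CPM and their groups were separate. A few others (among them Klf4, Itgae and, in Batf3KO, Klrd1) are named to complete a count of called genes and were chosen after their values were seen. For each member reaching 5 CPM, the 3 genes of highest Pearson's r over group means were named. Some genes that the rules name are not reported here. The scripts were tested on simulated data.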

Additional observations from a re-analysis of the deposited data

Results flagged for a closer look

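4 results differed between groups under the same contrast by a test of the difference itself (edgeR's quasi-likelihood test). The Id2 effect of IRF8KO was higher at 9 than at 3 months by 1.91 on the log2 scale, and the Batf2 effect differed by a fitted −8.21, with 0 counts in the 9-month knockouts. Between the conditional deletion and IRF8KO, the Batf3 effect differed by 8.75 and the Zbtb46 effect by −3.73. Both pairs of effects come from different experiments whose controls also differ in neutrophil, red blood cell, oligodendrocyte and microglia genes and in Xist. Age differs as well in the first pair, and the Cre allele, tamoxifen and the sort in the second. These cannot be told apart from the genotype effects compared.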

How the results depend on the processing

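Of 1216 alternative values of single genes, 1094 kept their direction and their side of the threshold, 37 passed it newly, 41 no longer passed it and 44 changed sign. Most changed calls of members are given beside their results. For the IRF8KO effect at 9 minus 3 months, Batf3 was also called with no filter (−4.58, adjusted p = 0.0437) and with all 33 libraries (−5.02, adjusted p = 0.0366). WT at 9 months had the lowest depth, with 2 to 16 counts of Batf2 per library.

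Genes called in IRF8KO against WT at 3 months (970) numbered 1655 with no filter, 2049 by DESeq2, 15 with Xist as a covariate and 3300 in 1 model of all 33 libraries, with 2, 2, 0 and 2 members called. At 9 months (4136) they were 1745 with the Xist covariate and 6836 with all 33 libraries, and in 5xFAD/IRF8KO against 5xFAD (4054) 6783 with all 33. In 5xFAD against WT (290) they were 163 with no filter, 900 by DESeq2, 3 with the Xist covariate, 4546 with only the 2 groups compared and 806 with all 33, and members called (0) were 1 with DESeq2-type size factors, 1 by DESeq2, 2 with only these groups and 1 with all 33. In Batf3KO (503) they were 998 with no filter, 842 by DESeq2 and 10 with all 33, with 1 member. In Cre against flox (0) they were 618 with no filter, 164 by DESeq2 and 3 with all 33, with 1 member called with no filter. For the IRF8KO effect at 9 minus 3 months (3717), all 33 libraries gave 6342 genes and 4 members. IRF8KO minus Batf3KO (529) gave 1401 genes by DESeq2. The conditional effect minus IRF8KO (1223) gave 2162 by DESeq2, and 1 member with all 33. The conditional effect minus Batf3KO (318) gave 1101 with no filter, 665 by DESeq2 and 12 with all 33, with 1 member. The cause of these shifts was not tested. Xist itself did not overlap between the libraries of IRF8KO and WT or of 5xFAD and WT, so its covariate can barely be parted from genotype there. With DESeq2-type size factors the split of higher and lower genes moved from 264 and 26 to 166 and 39 in 5xFAD against WT, and from 337 and 192 to 234 and 241 for IRF8KO minus Batf3KO, where the median of all genes moved from 0.16 to −0.01. For 9 minus 3 months that median moved from 0.40 to 0.57, below the Id2 value of 1.91 in either case.

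Same-numbered libraries of compared groups correlated at −0.153 to 0.167, so the numbers were not taken to pair them. With the replicate number as a block, genes called were 105 in 5xFAD against WT, 216 in Batf3KO, 252 for IRF8KO minus Batf3KO, 293 for the conditional effect minus IRF8KO (0 members) and 155 for the conditional effect minus Batf3KO, and 1 member was called for 9 minus 3 months. Batf changed sign under the block, to −0.109 in IRF8KO at 9 months, −1.98 for 9 minus 3 months and 0.608 for IRF8KO minus Batf3KO.

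With Xist as a covariate, values that changed sign were 0.0736 for Zeb2 in IRF8KO at 3 months, 0.159 for Zbtb46 in IRF8KO at 9 months, and −0.717 for Batf2 and 0.878 for Zbtb46 in 5xFAD. With all 33 libraries they were 0.0654 for Irf8 in 5xFAD, −0.000603 for Batf2 in Batf3KO and −0.00694 for Batf in Cre, and with no filter 0.0112 for Batf in the conditional effect minus IRF8KO.

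Leaving out 1 library at a time, genes called ranged over 305 to 1128 in IRF8KO at 3 months, 2266 to 4126 at 9 months, 2 to 102 in 5xFAD, 2325 to 4055 in 5xFAD/IRF8KO, 219 to 596 in Batf3KO, 0 to 952 in Cre, 2191 to 4053 for 9 minus 3 months, 154 to 1091 for IRF8KO minus Batf3KO, 471 to 1780 for the conditional effect minus IRF8KO and 107 to 1352 for that minus Batf3KO. Members called ranged, in the same order, over 1 to 2, 3 to 3, 0 to 0, 3 to 4, 2 to 2, 0 to 2, 1 to 3, 0 to 1, 1 to 2 and 1 to 2. Batf changed sign in these ranges: −0.297 to 1.23 at 3 months, −1.95 to 1.07 at 9 months, −1.28 to 0.199 in 5xFAD/IRF8KO, −0.0252 to 0.0985 in Cre, −1.92 to 1.2 for 9 minus 3 months, −0.647 to 0.872 for IRF8KO minus Batf3KO and −1.11 to 0.419 for the conditional effect minus IRF8KO. So did Batf2 in 5xFAD (−0.119 to 0.598) and Batf3KO (−0.135 to 0.319), Zbtb46 in 5xFAD/IRF8KO (−0.794 to 2.36) and Batf3KO (−0.336 to 0.251), Irf8 in 5xFAD (−0.130 to 0.0479) and for the conditional effect minus IRF8KO (−0.113 to 0.544), and Nfil3 for 9 minus 3 months (−0.266 to 0.790). For IRF8KO minus Batf3KO the ranges were −0.153 to 0.968 for Batf3 and −0.0427 to 0.902 for Nfil3.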
